A study of Homo sapiens with 4 samples.

Results

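The mitochondrial ribosomal protein genes were followed in K562/G01 cells whose TCF7 was knocked down, with and without imatinib. They were taken by symbol, as every gene in the deposited table named MRPL or MRPS with a number and, in some, a closing letter A to C, which leaves out pseudogenes. The rule found 78 of 28482 genes, 49 named for the large subunit and 29 for the small subunit. Of these, 77 reached 1 CPM, a count scaled to the size of its library, in at least 2 libraries and were tested, and MRPS24 did not.

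K562 is an established line of chronic myeloid leukemia that carries the BCR-ABL1 fusion kinase, and K562/G01 is a derivative that resists imatinib, an inhibitor of that kinase. All cells carried a lentivirus, with a short hairpin RNA against TCF7, a Wnt pathway transcription factor, or with a scramble hairpin as control. RNA depleted of ribosomal RNA was sequenced from 4 groups of 1 library each. These were TCF7 knockdown with imatinib at 1 µM for 48 hours, scramble with the same imatinib treatment, TCF7 knockdown without imatinib, and scramble without imatinib. No label states that the cultures were separate infections or treatments, and no group has a replicate. The p-values of the fit with both factors rest on how far these libraries depart from adding the knockdown and imatinib effects. That error is largely shared between genes. They do not measure a spread between replicate cultures. A lasting difference between the knockdown and the scramble cultures cannot be told apart from an effect of TCF7.

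The mitochondrial ribosome is built from ribosomal RNAs encoded in mitochondrial DNA and from proteins that are all encoded in the nucleus, made in the cytosol and imported. It translates the few mRNAs of mitochondrial DNA, whose products are core subunits of the respiratory chain and of ATP synthase. Some of its proteins belong to families shared with the bacterial ribosome, and others are found only in mitochondria.

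Library totals ran from 30634832 to 34095585 counts. TCF7 itself, on chromosome 5 (GRCh38, 134114711 to 134151865), had 3.71 CPM in the knockdown library with imatinib against 10.7 CPM in the scramble library with imatinib, and 2.57 CPM in the knockdown library against 10.3 CPM in the scramble library. All 10 markers of K562 cells, among them the embryonic and fetal globin genes, reached 1 CPM. Of the markers of other cell types, 1 of 3 for T cells, 1 of 3 for monocytes, 1 of 3 for fibroblasts and 2 of 3 for epithelial cells passed the filter, and neither of the B cell markers in the table did. The fibroblast marker COL1A1 rose with knockdown at a mean of 0.688 CPM, the only marker called for knockdown without offsets for GC content and length. With such offsets, used again below, COL1A1 still rose. HBG2 (log2 fold change -0.21, edgeR adjusted p = 0.00505) and HBE1 (-0.23, 0.00267) then fell, as did 6.21% of all genes in that fit. With imatinib 5 of the 10 K562 markers rose and 3 fell, where 13.8% of all genes tested rose and 7.08% fell. The epithelial marker KRT8 rose (log2 fold change 0.36, edgeR adjusted p = 9.29e-04) and EPCAM fell (-0.25, 0.0486). With the offsets for GC content and length used below, 1 of the 10 K562 markers rose and 3 fell. In that fit the T cell marker CD3D fell (log2 fold change -0.42, edgeR adjusted p = 0.0276), and neither KRT8 nor EPCAM was called. Of all genes 2.2% rose and 2.29% fell in that fit. The epithelial markers summed to 223 CPM in the knockdown library with imatinib, 197 in the scramble library with imatinib, 183 in the knockdown library and 182 in the scramble library. The part of these markers in the results below was not tested.

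The 78 genes together held 0.528% of all counts in the knockdown library with imatinib, 0.529% in the scramble library with imatinib, 0.530% in the knockdown library and 0.522% in the scramble library. In bulk RNA, fewer cells of a type and less RNA per cell cannot be told apart. Levels of different genes were compared per length, by the FPKM values the authors deposited, averaged over the 4 libraries. MRPL15, a large subunit protein of a family shared with bacteria, stood first with a mean of 225 deposited FPKM. It had 179 deposited FPKM in the knockdown library with imatinib, 270 in the scramble library with imatinib, 178 in the knockdown library and 272 in the scramble library. Next came MRPL3 with a mean of 78.1 and MRPL16 with 76.9 deposited FPKM, both large subunit proteins of families shared with bacteria. Their ranges over the libraries, 75.4 to 81.7 for MRPL3 and 68.2 to 85.5 for MRPL16, overlapped each other and lay below every value of MRPL15. In the small subunit the highest means were those of MRPS35, a protein found only in mitochondria, at 61.0 deposited FPKM, MRPS10 at 58.6 and MRPS21 at 56.7. The median member had 20.1 deposited FPKM.

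**Figure D1:**
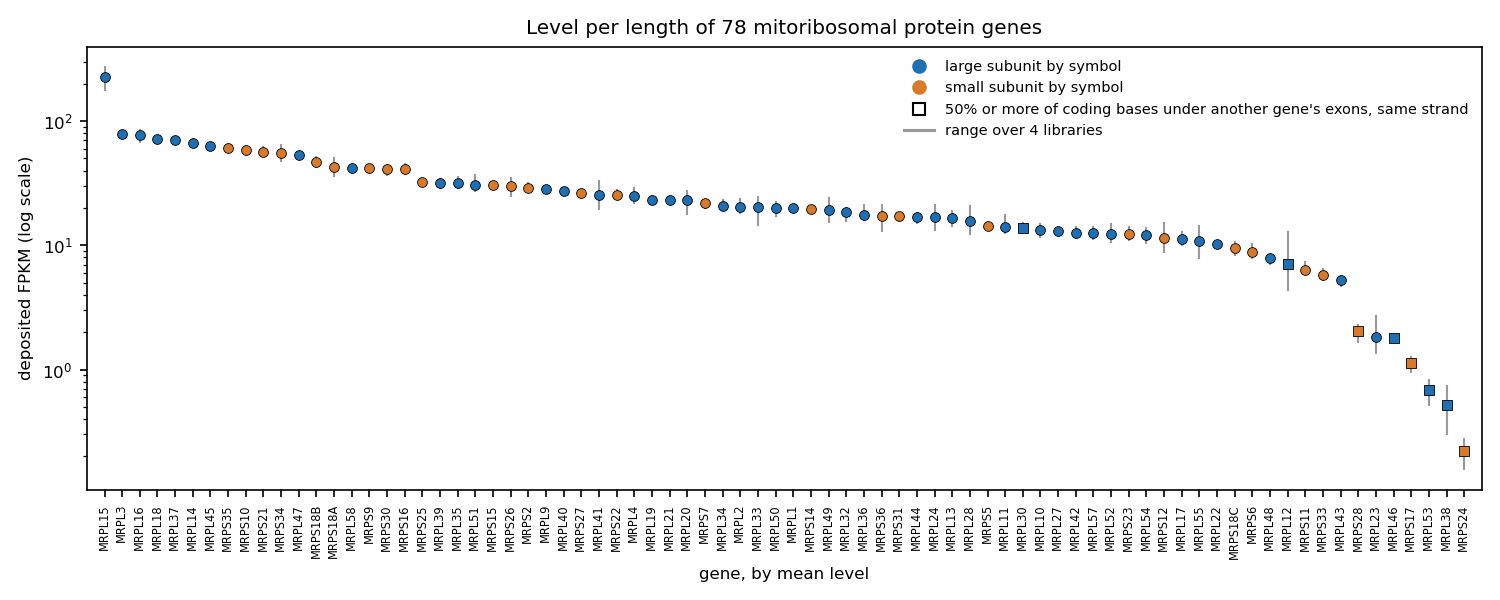
Mean deposited FPKM (log axis) of the 78 mitochondrial ribosomal protein genes, ordered from high to low, with a line for the range over the 4 libraries. Circles stand for genes with less than 50% of their coding bases under the exons of another gene on the same strand and squares for genes with 50% or more. MRPL15 lies above all others at 225, and most squares lie at the low end.

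At the low end, MRPS24 averaged 0.222, MRPL38 0.515, MRPL53 0.685, MRPS17 1.13, MRPL46 1.80, MRPL23 1.84 and MRPS28 2.06 deposited FPKM. These 7 were the members under 3 deposited FPKM. In GENCODE release 29, 6 of the 7 have at least 50% of their coding bases under exons of another annotated gene on the same strand. That share was 92.2% for MRPS24, under the readthrough gene URGCP-MRPS24. For MRPL38 it was 94.1%, under AC087289.3, and for MRPL53 it was 100%, under CCDC142. For MRPS17 it was 100%, under AC092647.5, for MRPL46 64.0%, under AC013489.1, and for MRPS28 53.0%, under AC036214.3. Only 2 other members had such a share, MRPL12 with 96.0% under AC139530.2 at a mean of 7.07 deposited FPKM, and MRPL30 with 95.3% under AC079447.1 at 13.9. Over all exon bases, coding or not, the overlapped share of the 6 low genes was smaller, from 11.3% for MRPL46 to 45.2% for MRPL53. By that measure MRPL12 had 68.2% and MRPL30 19.5%. The 8 genes had a median of 1.46 deposited FPKM, while the 66 members with no overlapped coding base had a median of 21.4 and only MRPL23 under 3. The other 4 had a smaller overlapped share and a median of 21.6. How the counting treated reads in shared exons is not given in the sources used here, its part in these levels was not tested, and the levels of the 8 genes are uncertain. The 18 pseudogene rows of the family summed to 2848 counts, 0.417% of the 683301 counts of the members. How reads that align to several places were handled is not given. This sum therefore cannot show what reads shared with such copies did to the members' levels.

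The subunits were then set against each other in each library. Members named for the large subunit summed to 3113 CPM in the knockdown library with imatinib, 3045 in the scramble library with imatinib, 3093 in the knockdown library and 3029 in the scramble library. Members named for the small subunit summed to 2198, 2207, 2247 and 2203 CPM in the same libraries, in the same order. The large over small ratio was 1.416 in the knockdown library with imatinib (counting interval 1.402 to 1.430) and 1.380 in the scramble library with imatinib (1.367 to 1.392). Without imatinib it was 1.377 in the knockdown library (1.363 to 1.390) and 1.375 in the scramble library (1.362 to 1.388). The knockdown library with imatinib thus had the highest ratio and its counting interval did not reach those of the other libraries, but the whole spread is small and no group has a replicate, so it was not tested.

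Single genes weigh on these sums. MRPL15 alone gave 8.73% of the large subunit CPM and MRPS30 11.5% of the small subunit CPM. Without them the large over small ratio was 1.473 in the knockdown library with imatinib, 1.397 in the scramble library with imatinib, 1.444 in the knockdown library and 1.405 in the scramble library, so that both knockdown libraries then lay above both scramble libraries. Structures of the human mitochondrial ribosome place MRPS18A and MRPS30 in the large subunit despite their names, and MRPS36 is known as a subunit of the oxoglutarate dehydrogenase complex. With those 2 genes counted as large and MRPS36 left out, the ratio was 1.810 in the knockdown library with imatinib, 1.799 in the scramble library with imatinib, 1.772 in the knockdown library and 1.818 in the scramble library. On summed deposited FPKM it was 1.817, 1.843, 1.793 and 1.860 in the same order. With either of these settings the knockdown library with imatinib no longer had the highest ratio.

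**Figure D2:**
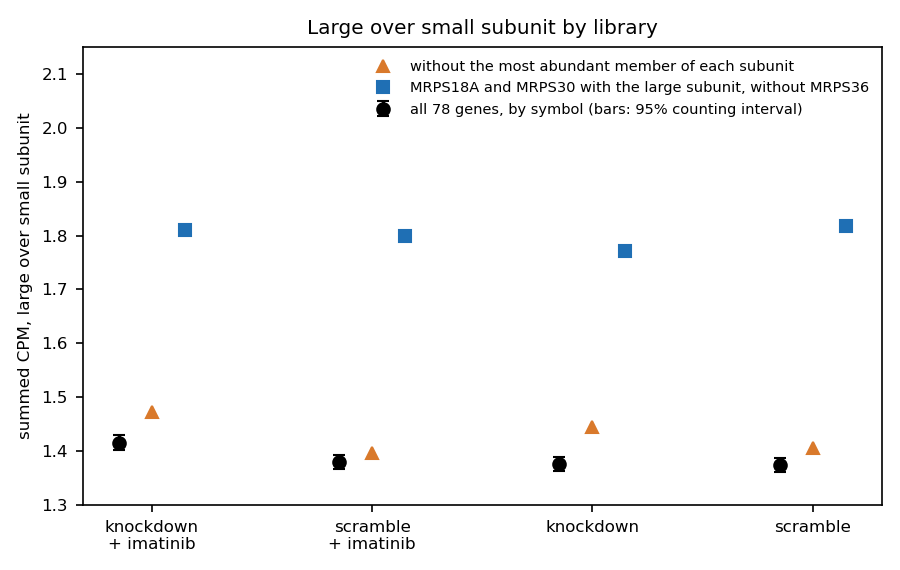
Summed CPM of the large over the small subunit in each of the 4 libraries for all 78 genes by symbol, without MRPL15 and MRPS30, and with MRPS18A and MRPS30 moved to the large subunit and MRPS36 left out. Bars are 95% counting intervals, drawn for all 78 genes; the vertical axis does not start at 0. By symbol the knockdown library with imatinib is highest at 1.416, and with the genes moved the scramble library is highest at 1.818.

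The knockdown comparison sets cells with less TCF7 against scramble cells, with and without the drug. Over both imatinib states, MRPL33, MRPL49 and MRPL16 rose and MRPL15 fell, and all 4 are large subunit proteins. These are 3.9% and 1.3% of the 77 members tested, where 3.8% of all 13296 genes tested rose and 3.34% fell, 7.14% together, so the share that rose was that of all genes. None of the 28 small subunit members tested was called, nor were the 45 other large subunit members. The test was edgeR's quasi-likelihood test with Benjamini-Hochberg adjustment over all genes tested, with knockdown and imatinib as terms. It leaves 1 residual degree of freedom, so most of its error is borrowed from other genes (33.7 prior degrees of freedom).

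MRPL15 lies on chromosome 8 (ENSG00000137547.8; GRCh38, 54135210 to 54147901, plus strand). It had 6769 counts in the knockdown library with imatinib, 10983 in the scramble library with imatinib, 6501 in the knockdown library and 10722 in the scramble library, or 214, 320, 214 and 324 normalised CPM in that order. Both knockdown libraries lay far below both scramble libraries, and the libraries with imatinib were close to those without it. The log2 fold change with knockdown was -0.59 (SE 0.0698, edgeR adjusted p = 1.88e-07), with log2 ratios of -0.58 (counting interval -0.62 to -0.53) under imatinib and -0.60 (-0.64 to -0.56) without it. Fitted on 3 libraries with knockdown as the only term, MRPL15 was called without the knockdown library (edgeR adjusted p = 4.54e-04) and without the knockdown library with imatinib (9.40e-04). It was not called without the scramble library (edgeR adjusted p = 0.959) or without the scramble library with imatinib (0.707), at log2 fold changes of -0.58 and -0.60.

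The 4 genes on each side of MRPL15 that were tested and averaged at least 5 CPM, looked up after its value was seen, were lower by like amounts, and 7 of the 8 fell. On the side of lower coordinates, RGS20 (log2 fold change with knockdown -0.72, edgeR adjusted p = 2.0e-06), TCEA1 (-0.69, 6.16e-09) and LYPLA1 (-0.61, 1.2e-07) fell, and RP11-30L15.6 was not called (-0.70, 0.0532). On the side of higher coordinates, TMEM68 (-0.62, 5.58e-07), TGS1 (-0.66, 1.67e-08), LYN (-0.63, 5.57e-08) and RP11-318K15.2 (-0.51, 0.0459), which lies within the span of LYN, fell. The stretch from the start of RGS20 to the end of LYN runs from 53851808 to 56014168. RGS20 regulates G protein signalling, TCEA1 is a transcription elongation factor, LYPLA1 removes palmitate from proteins, TGS1 hypermethylates the caps of small nuclear RNAs and LYN is a SRC family kinase. The part of this stretch in the result for MRPL15 was not tested. The other members on chromosome 8 lie elsewhere on it and were not called for knockdown. MRPL13 had log2 ratios of -0.12 under imatinib and 0.12 without it, and MRPS28 had 0.10 and 0.37.

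MRPL33, a large subunit protein of a family shared with bacteria, had 37.7 CPM in the knockdown library with imatinib, 22.2 in the scramble library with imatinib, 36.8 in the knockdown library and 28.0 in the scramble library. Both knockdown libraries lay above both scramble libraries, and the scramble library with imatinib was lowest. The log2 fold change was 0.58 (SE 0.109, edgeR adjusted p = 4.05e-04), with log2 ratios of 0.76 (counting interval 0.63 to 0.90) under imatinib and 0.40 (0.27 to 0.52) without it. MRPL33 overlaps BABAM2 on the same strand over 9.89% of its coding bases and 21.1% of all its exon bases.

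For MRPL49, a large subunit protein found only in mitochondria, normalised CPM was 74.2 in the knockdown library with imatinib, 55.0 in the scramble library with imatinib, 59.7 in the knockdown library and 47.5 in the scramble library. Each knockdown library was above its scramble library, and each library with imatinib was above the one without. MRPL49 rose with knockdown (log2 fold change 0.38, SE 0.0867, edgeR adjusted p = 0.00356) and with imatinib (log2 fold change 0.26, SE 0.0866, edgeR adjusted p = 0.0282), the only member called in both. MRPL16, whose bacterial relative lies near the tRNA sites of the large subunit, had 188, 161, 196 and 155 CPM in the same order of libraries. Both knockdown libraries lay above both scramble libraries (log2 fold change 0.28, SE 0.0719, edgeR adjusted p = 0.011). DESeq2 with the same terms called MRPL15 (adjusted p = 1.4e-09) and MRPL33 (0.0225) but not MRPL49 (0.0763) or MRPL16 (0.11). Leaving out 1 library ended the edgeR call of MRPL33 in each case but that of the knockdown library (adjusted p = 0.042), as for MRPL49 (0.0297), and ended that of MRPL16 in all 4 cases. The log2 fold change then lay between 0.41 and 0.75 for MRPL33 and between 0.24 and 0.32 for MRPL16. For MRPL49 it was 0.23 without the knockdown library with imatinib and between 0.28 and 0.52 without each of the other libraries.

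**Figure D3:**
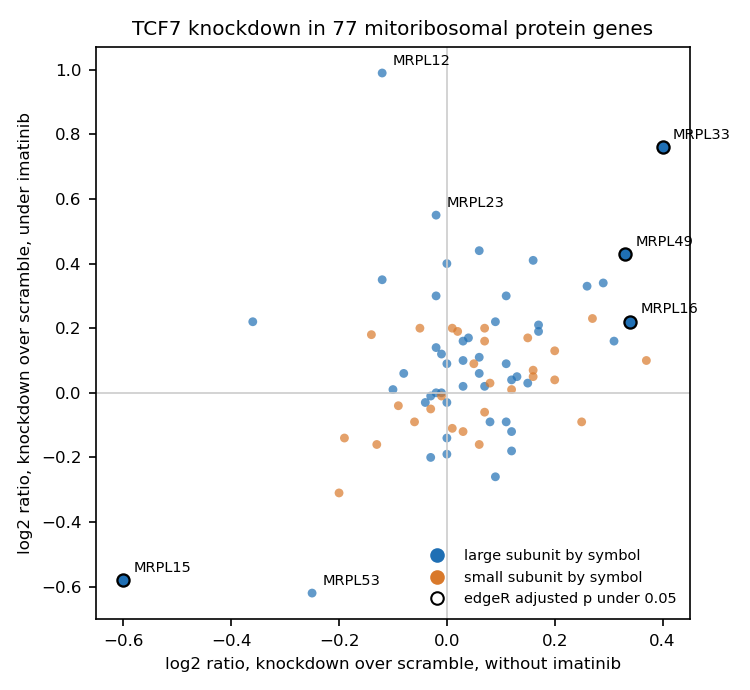
Log2 ratio of knockdown over scramble libraries without imatinib (horizontal) and under imatinib (vertical) for the 77 tested genes, with large and small subunit members in 2 colours and the 4 genes that passed the edgeR test ringed. MRPL15 lies alone at about -0.6 on both axes, most genes lie close to 0, and MRPL12 is at 0.99 under imatinib and at -0.12 without it.

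Over the 77 members tested, the median log2 ratio of knockdown over scramble was 0.06 under imatinib (all genes tested 0.02) and 0.05 without it (all genes 0.00), with middle quartiles from -0.05 to 0.20 and from -0.02 to 0.12. At a log2 ratio of 0.32 or more in size, 10 members were higher and 2 lower in the knockdown library under imatinib, which is 13.0% and 2.6% of members against 15.3% and 11.3% of all genes tested. Without imatinib 4 were higher and 2 lower, or 5.19% and 2.6% against 9.63% and 12.8%. MRPL12, the stalk protein that binds elongation factors, had the highest ratio under imatinib at 0.99 (counting interval 0.76 to 1.23) but -0.12 (-0.46 to 0.22) without it, and it was not called for knockdown (log2 fold change 0.48, edgeR adjusted p = 0.19). Without the knockdown library, and with knockdown as the only term, it was called (1.18, edgeR adjusted p = 4.14e-04), and without the knockdown library with imatinib its log2 fold change was -0.35 (0.80). Large subunit medians were 0.09 under imatinib and 0.04 without it, and small subunit medians 0.04 and 0.05.

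**Figure D4:**
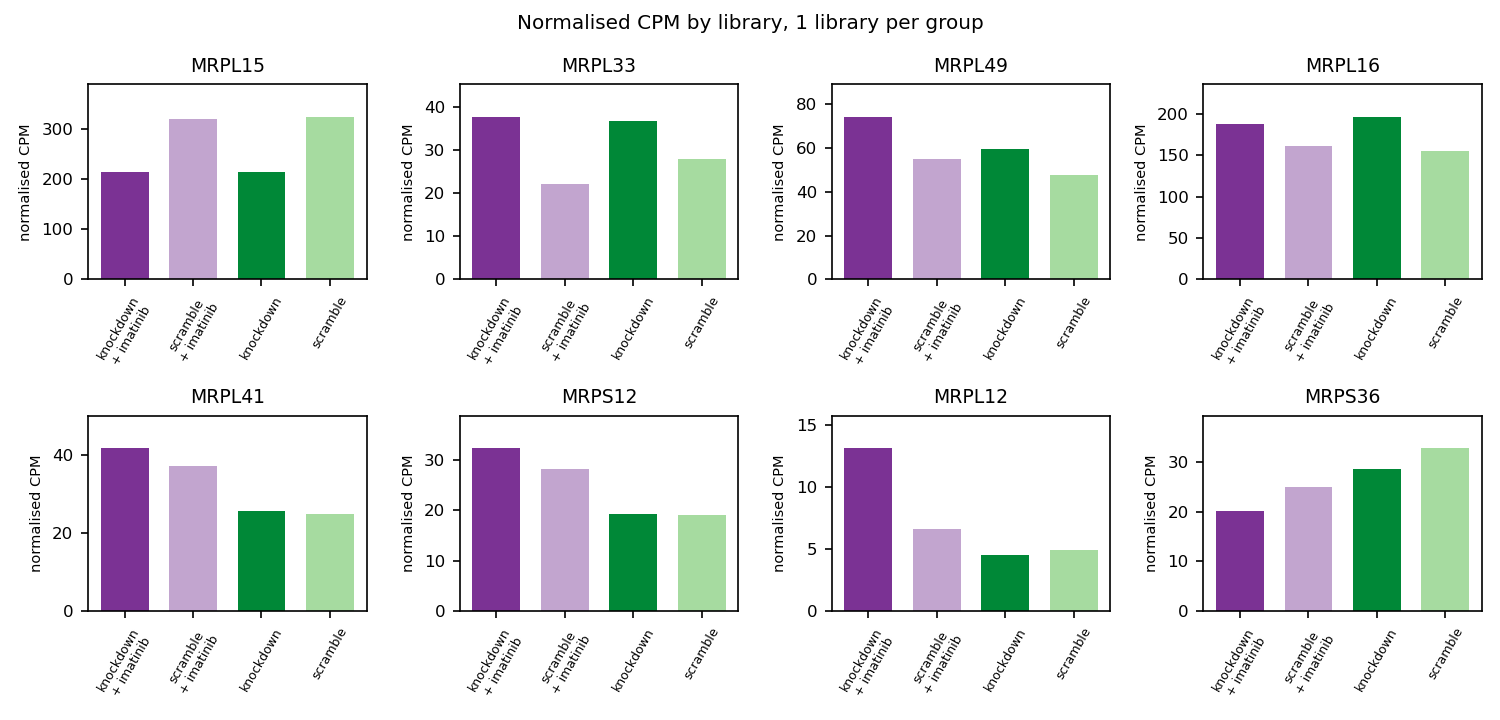
Normalised CPM (from 0) in each library for MRPL15, MRPL33, MRPL49 and MRPL16, which were called for knockdown, and MRPL41, MRPS12, MRPL12 and MRPS36, which were called for imatinib. Each bar is 1 library, so there is no error bar. In the upper panels the knockdown bars differ from the scramble bars next to them, and in the lower panels the bars with imatinib differ from those without.

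The imatinib comparison asks how the resistant cells differ after 48 hours of drug. Over both cell types 15 members rose and 7 fell, 19.5% and 9.09% of the 77 tested, where 13.8% of all genes tested rose and 7.08% fell. Of those that rose, 11 are named for the large subunit and 4 for the small subunit, and of those that fell, 5 and 2. Families shared with bacteria gave 9 risen and 4 fallen of 46 tested, and proteins found only in mitochondria 5 risen and 2 fallen of 29. The median log2 ratio of the members was 0.01 in knockdown cells and 0.03 in scramble cells, beside 0.01 and -0.01 over all genes tested. DESeq2 called 7 of the 22. With the scramble library with imatinib left out and imatinib as the only term, edgeR still called MRPL41, MRPS12, MRPL28 and MRPL12, and with any of the other 3 libraries left out it called 0 members, although between 10 and 12 had an unadjusted p under 0.05.

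MRPL41, a large subunit protein found only in mitochondria (ENSG00000182154.7; chromosome 9, 137551199 to 137552555, plus strand), had 41.7 CPM in the knockdown library with imatinib, 37.1 in the scramble library with imatinib, 25.6 in the knockdown library and 24.9 in the scramble library. Both libraries with imatinib lay above both libraries without it. It rose with a log2 fold change of 0.64 (SE 0.104, edgeR adjusted p = 3.55e-05). MRPS12, the decoding centre protein of the small subunit (chromosome 19, 38930548 to 38933162, plus strand), had 32.3, 28.3, 19.3 and 19.1 CPM in the same order, again with no overlap between libraries with and without imatinib. Its log2 fold change was 0.65 (SE 0.115, edgeR adjusted p = 1.06e-04). MRPL28 showed the same order of libraries, with 49.7, 40.4, 32.0 and 29.7 CPM (log2 fold change 0.54, edgeR adjusted p = 1.91e-04).

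MRPL12 rose by the largest fold among the members called. It had 415 counts in the knockdown library with imatinib, 227 in the scramble library with imatinib, 137 in the knockdown library and 162 in the scramble library, or 13.1, 6.61, 4.51 and 4.90 CPM. The knockdown library with imatinib stood well above the other 3. The log2 ratio of imatinib over none was 1.53 (counting interval 1.26 to 1.83) in knockdown cells and 0.43 (0.13 to 0.73) in scramble cells, and the fitted log2 fold change was 1.00 (SE 0.214, edgeR adjusted p = 0.00103), against 0.50 without the knockdown library with imatinib (edgeR adjusted p = 0.546). The difference between the pairs was not tested, and this is one of the genes whose coding bases are mostly overlapped.

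The others that rose were MRPL20 (log2 fold change 0.38), MRPL4 (0.34), MRPL55 (0.52), MRPS18A (0.36), MRPS26 (0.38), MRPL24 (0.38), MRPL2 (0.31), MRPL52 (0.31), MRPS34 (0.28) and MRPL23 (0.69), beside MRPL49. In this set MRPL4 and MRPL23 are proteins of the exit tunnel and its rim, and MRPL2 lies near the peptidyl transferase centre. Their edgeR adjusted p-values lay between 0.00143 for MRPL20 and 0.0282 for MRPL49. MRPS36, the oxoglutarate dehydrogenase subunit, fell and had the lowest fold change of the members called. It had 20.1 CPM in the knockdown library with imatinib, 24.9 in the scramble library with imatinib, 28.5 in the knockdown library and 32.7 in the scramble library (log2 fold change -0.44, SE 0.111, edgeR adjusted p = 0.0041). Both libraries with imatinib lay below both without it. The other 6 that fell were MRPL50 (-0.31), MRPL13 (-0.30), MRPS6 (-0.33), MRPL35 (-0.23), MRPL42 (-0.22) and MRPL32 (-0.25), with edgeR adjusted p-values between 0.00787 for MRPL50 and 0.0324 for MRPL32. Without the knockdown library with imatinib the log2 fold change was 0.42 for MRPL23, 0.22 for MRPL24, 0.04 for MRPL49, -0.15 for MRPL32 and -0.29 for MRPS36. Without the scramble library it was 0.23 for MRPL20 and 0.11 for MRPL49. Without the knockdown library it was 0.45 for MRPL49, and without the scramble library with imatinib 0.47.

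At a log2 ratio of 0.32 or more in size, 17 members were higher and 5 lower with imatinib in knockdown cells, 22.1% and 6.49% of members, beside 25.1% and 12.9% of all genes tested. In scramble cells 12 were higher and 2 lower, 15.6% and 2.6%, beside 14.6% and 7.8%. Only MRPL12 and MRPL38 reached 2-fold, both in knockdown cells. MRPL38 had 85 counts in the knockdown library with imatinib, 79 in the scramble library with imatinib, 34 in the knockdown library and 48 in the scramble library, and was not called (edgeR adjusted p = 0.0519).

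The direction of the imatinib calls followed the GC content of the transcripts. The 78 members were split into 3 sets of 26 by the GC content of their longest GENCODE transcript. In the set with the lowest GC content (33.5% to 43.8%) 0 of 26 rose and 7 fell. In the middle set (44.2% to 51.8%) 2 of 25 tested rose and 0 fell. In the set with the highest GC content (52.2% to 71.9%) 13 of 26 rose and 0 fell. Over all genes tested 13.8% rose and 7.08% fell, and their shares within these ranges of GC content are not given here. The highest set had median log2 ratios of 0.39 in knockdown cells and 0.25 in scramble cells, and the lowest set -0.14 in both. Across the 77 genes, Spearman's rho between GC content and the ratio was 0.78 in knockdown cells and 0.71 in scramble cells. This is a description across genes, which are not replicates and share the same libraries. The same rho over all genes tested is not given here, so the pattern is not shown to be particular to these members. For knockdown over scramble rho was 0.41 under imatinib and -0.18 without it. Once a trend on GC content and length, smoothed over the whole table, had been subtracted, rho was -0.09 in knockdown cells and 0.13 in scramble cells.

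**Figure D5:**
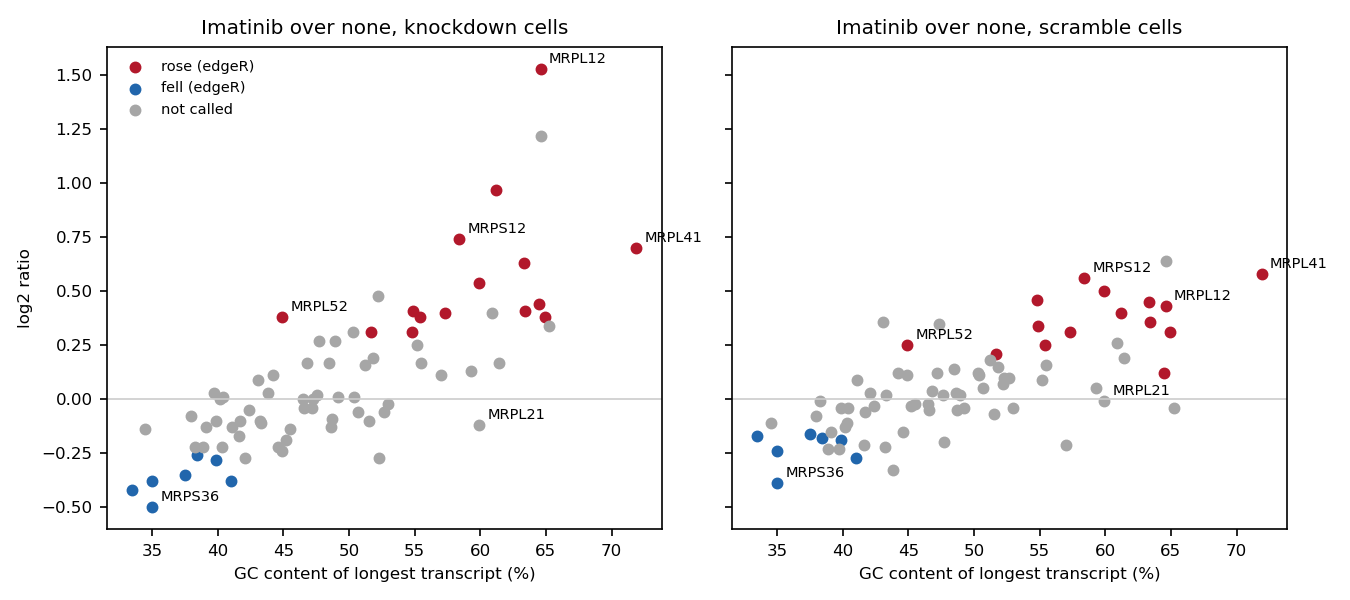
Log2 ratio of imatinib over none in knockdown cells (left) and scramble cells (right) against the GC content of the longest transcript for the 77 tested genes. Red points rose, blue points fell and grey points were not called by edgeR; each point is 1 gene. All blue points lie at the low end of GC content and most red points above 52.2%, with MRPL52 the red point of lowest GC content.

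Without offsets 20.9% of all 13296 genes tested were called for imatinib. With offsets for GC content and length in the same edgeR fit, 4.49% of 13255 genes were called, 2.2% risen and 2.29% fallen. Among the members 2 rose and 3 fell in that fit, 5 in all of 77. MRPL52 rose (log2 fold change 0.39, edgeR adjusted p = 7.3e-04) and MRPS12 rose (0.38, 0.0143), and these 2 are the only ones of the 22 called before that were still called. MRPL52, a large subunit protein found only in mitochondria, has 44.9% GC and had 47.8 CPM in the knockdown library with imatinib, 41.1 in the scramble library with imatinib, 36.7 in the knockdown library and 34.5 in the scramble library. Its libraries with and without imatinib did not overlap. MRPL21, of 59.9% GC and a family shared with bacteria, fell with the offsets (-0.42, 4.23e-06) although it had 64.4, 63.1, 70.0 and 63.3 CPM in the same order and a log2 fold change of -0.06 without them. MRPS2 (-0.22, 0.0444) and MRPL36 (-0.33, 0.0447) also fell with the offsets only. Without the offsets their log2 fold changes were positive, 0.18 for MRPS2 and 0.15 for MRPL36, and not called. For knockdown the offsets left all 4 calls and added MRPL51, which rose; 5.79% of genes rose and 6.21% fell in that fit.

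The 3 MRPS18 proteins are paralogues of a single bacterial family and differed in the imatinib comparison in the order of their GC content. MRPS18A, at 57.3% GC, had 65 CPM in the knockdown library with imatinib, 58.2 in the scramble library with imatinib, 49.1 in the knockdown library and 46.9 in the scramble library, and rose (edgeR adjusted p = 0.00385). MRPS18B, at 51.2% GC, had 90.9, 96.5, 81.4 and 85.0 CPM in the same order and was not called (log2 fold change 0.17, edgeR adjusted p = 0.113). MRPS18C, at 38.9% GC, had 45.0, 40.0, 52.4 and 47.1 CPM and was not called (-0.23, 0.0764). With the offsets none of the 3 was called, at log2 fold changes of 0.12, 0.10 and -0.07.

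Promoter sequences of RefSeq on GRCh38.p14, from 250 bases before to 50 after the start, were given for 69 of the 78 genes, all but MRPL2, MRPL10, MRPL13, MRPL15, MRPL21, MRPL23, MRPL35, MRPS28 and MRPS36. Motifs known from promoters of nuclear genes for mitochondrial proteins were searched as exact letters on both strands, NRF1 as its 10-base palindrome. The ETS motif CCGGAAG was in 29 of 69 member promoters (42.0%), against 20.8% of promoters of genes tested and 10.7% of all 27305. The YY1 motif AAGATGGCG was in 13 (18.8%), against 4.35% and 1.85%. The NRF1 motif was in 1 (1.45%, against 2.47% and 1.36%), the E-box CACGTG in 6 (8.7%, against 10.4% and 7.43%) and the ERR motif TCAAGGTCA in 0 (against 0.168% and 0.359%). The last 3 letters of the ETS motif are the first 3 of the YY1 motif, so that a match of each can share bases. A match describes letters and not binding. By imatinib call, the ETS motif was in 7 of 13 promoters of members that rose, 0 of 4 of those that fell and 22 of 51 of those not called, and the YY1 motif in 2 of 13, 3 of 4 and 7 of 51, as well as in MRPS24, which was not tested. Median GC content of the 250 bases before the start was 64.8% (range 49.2% to 82.8%) over the 13 promoters of members that rose. It was 59.2% (51.6% to 84.8%) over the 4 of those that fell and 60.8% over all 69.

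Bases 120 to 21 before the start are shown for 6 members, 5′ to 3′ on the strand of the gene, with ETS and YY1 matches in capitals. In the stretch, MRPL3, the second member by mean deposited FPKM, and MRPL20 and MRPS18A, which rose with imatinib, carry the ETS motif. MRPL52, which rose with and without the offsets, carries the YY1 motif there at 2 places. Beyond the stretch MRPL52 also has an ETS match and MRPS18A a YY1 match. A further ETS match of MRPL20 runs past the end of the stretch and is not marked. MRPL12, with the largest fold, and MRPL50, which fell, have neither motif in the stretch, though MRPL50 has a YY1 match after its start. They lie at chr3:131502992-131503091 (minus strand), chr1:1407314-1407413 (minus), chr6:43687812-43687911 (minus), chr14:22829767-22829866 (plus), chr17:81703247-81703346 (plus) and chr9:101398639-101398738 (minus), in the order printed.
MRPL3: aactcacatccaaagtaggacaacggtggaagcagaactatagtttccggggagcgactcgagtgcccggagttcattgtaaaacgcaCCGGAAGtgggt
MRPL20: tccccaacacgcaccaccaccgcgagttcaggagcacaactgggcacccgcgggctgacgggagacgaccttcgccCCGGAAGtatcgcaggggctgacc
MRPS18A: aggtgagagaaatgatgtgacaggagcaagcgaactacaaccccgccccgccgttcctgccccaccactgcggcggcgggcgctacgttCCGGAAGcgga
MRPL52: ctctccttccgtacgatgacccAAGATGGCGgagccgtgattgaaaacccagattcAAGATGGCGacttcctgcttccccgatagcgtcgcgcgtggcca
MRPL12: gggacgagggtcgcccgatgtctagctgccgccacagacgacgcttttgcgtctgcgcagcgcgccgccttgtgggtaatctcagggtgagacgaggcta
MRPL50: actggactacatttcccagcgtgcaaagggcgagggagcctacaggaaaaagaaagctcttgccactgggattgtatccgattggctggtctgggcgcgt

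The other genes of mitochondrial translation were read from the same fits. Of 7 mitoribosomal proteins with other symbols, 5 were in the table and tested. AURKAIP1, a small subunit protein, rose with imatinib (log2 ratios 0.96 in knockdown cells and 0.43 in scramble cells, edgeR adjusted p = 3.96e-06), as did GADD45GIP1, a large subunit protein (0.42 and 0.27, 0.00206). None of the 5 was called for knockdown without the offsets. With them DAP3 fell (log2 fold change -0.18, edgeR adjusted p = 0.0272), as did 6.21% of all genes in that fit. Beside the counts that follow, 13.8% of all genes tested rose and 7.08% fell with imatinib, and 3.8% and 3.34% with knockdown. Of 26 tested assembly and ribosomal RNA factors of the mitochondrial ribosome, 10 rose and 0 fell with imatinib, among them the helicase DHX30 (0.35 in knockdown cells and 0.30 in scramble cells, 0.00138), RPUSD3 (0.49 and 0.21, 0.00742), NGRN (0.82 and 0.31, 0.00804) and the GTPase MTG2 (0.52 and 0.18, 0.0113). Of these 26, only the pseudouridine synthase RPUSD4 was called for knockdown, and it rose (log2 ratios 0.42 under imatinib and 0.45 without it, edgeR adjusted p = 0.00218).

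Of 18 mitochondrial translation factors, 3 rose and 2 fell with imatinib, against 13.8% and 7.08% of all genes tested. For knockdown 0 were called without the offsets, and with them LRPPRC fell (log2 fold change -0.17, edgeR adjusted p = 0.0342). In the imatinib comparison without offsets the calls were as follows. TUFM, the elongation factor that delivers tRNA, rose (log2 ratios 0.37 in knockdown cells and 0.33 in scramble cells, edgeR adjusted p = 5.74e-04), as did LETM1 and TACO1. SLIRP (-0.51 and -0.29, 3.97e-04) and its partner LRPPRC (-0.29 and -0.13, 0.0331), which stabilise mitochondrial mRNAs, fell. Of 12 genes of mitochondrial transcription, the RNA polymerase gene POLRMT rose (0.74 and 0.61, 8.06e-07), as did ESRRA, and TFAM, which packages mitochondrial DNA, fell (-0.40 and -0.10, 0.0143). Here too the genes that rose and fell differed in GC content, with 66.3% for POLRMT and 57.6% for TUFM but 39.4% for SLIRP, 42.4% for LRPPRC and 38.4% for TFAM. With the offsets NGRN was the only gene of these 4 lists that was called for imatinib. On the same strand 81.5% of the coding bases of NGRN lie under exons of AC091167.2. NGRN averaged 1.68 deposited FPKM, so its level is uncertain as well. DESeq2, without offsets, did not call NGRN for imatinib (adjusted p = 0.0983). Mitochondrially encoded genes took 8.28% of counts in the knockdown library with imatinib, 6.94% in the scramble library with imatinib, 7.32% in the knockdown library and 6.76% in the scramble library.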

How the data were processed

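Total RNA of 4 cultures was depleted of ribosomal RNA and made into libraries with a strand-keeping kit, per the labels' protocols. The submitters' processing notes name FastQC, HISAT2, HTSeq 0.6.1 and GRCh38. Annotation release and strand setting were not given in the sources used here, so genes that overlap others are uncertain. Per the file headers, the authors deposited read counts, which are whole numbers and entered the tests unchanged, with FPKM values and their log2 for every gene and library. The 4 log2 columns were not used. The deposited FPKM column was treated as a score, because 6 genes have negative values; for 77 of the 78 genes it implies the merged exon length of GENCODE release 29 within 1 base. It was used to compare levels between genes and for alternatives.

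Identifiers were matched to GENCODE release 29 (28329 matched, 26313 with the same version), and GC content and length are those of the longest transcript. Tests covered the 13296 genes that reached 1 CPM in 2 or more libraries. Log2 ratios compare CPM scaled by TMM, with 2 as prior count, and have exact binomial 95% intervals of the counts, which cover counting error only. edgeR 4.0.16 in R 4.3.3 fitted both factors over all 4 libraries, with an adjusted p threshold of 0.05 over all genes tested. Its script was tested on simulated counts with a single spread for all genes. There the knockdown test recovered 4 of 50 genes changed 1.25-fold, 33 of 50 changed 1.5-fold and 49 of 50 changed 2-fold. A gene that was not called can thus still have changed by a small fold. Alternatives were other scalings, filters at 0 and 5 CPM, DESeq2 1.42.0, limma 3.58.1 on log2 of deposited FPKM plus 0.1, the fit without the other factor, each library left out (then with 1 factor) and a smooth GC and length trend per library (mgcv 1.9.3, fitted at 5 CPM or more, available for 13255 genes) as offsets.

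The genes and lists were chosen with earlier results of these data known. Named genes are the members called in either test, up to 15 per direction; the 3 highest and 3 lowest of each subunit by deposited FPKM; the 5 highest and 5 lowest by the smaller of 2 ratios of the same sign at 5 CPM or more; MRPS18A, MRPS18B, MRPS18C, MRPS30, MRPS36, MRPL12, MRPL15 and MRPS12; up to 4 called genes of each other list; and TCF7. The limits of 50% overlapped coding bases and 3 deposited FPKM, and the genes they or the offsets single out, were chosen after values were seen.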

Additional observations from a re-analysis of the deposited data

Results flagged for a closer look

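For 5 members the log2 ratio of knockdown over scramble had opposite signs with and without imatinib, and both counting intervals left out 0. The difference was not tested. Those intervals cover counting error only and not the spread between cultures. The share of all genes tested that meets the same rule is not given here, so these counts do not set the members apart. MRPL13 had -0.12 under imatinib and 0.12 without it, MRPL19 -0.09 and 0.11, MRPL39 -0.18 and 0.12, MRPS27 -0.06 and 0.07, and MRPS34 0.18 and -0.14. For 2 members the ratio of imatinib over none had opposite signs in knockdown and scramble cells in the same way, and this difference was not tested either. MRPL17 had 0.27 in knockdown cells and -0.20 in scramble cells, and MRPS35 had -0.13 and 0.09.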

How the results depend on the processing

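No paired analysis was possible because each group has 1 library and the labels carry no replicate numbers. For knockdown, where 4 members were called, DESeq2 called 2, limma on deposited FPKM 2, the edgeR fit without the other factor 0 (4 at an unadjusted p under 0.05) and the fits without 1 library between 0 and 4 (0 without scramble and 0 without scramble with imatinib, each with 2 unadjusted, 1 without knockdown with imatinib and 4 without knockdown, where MRPL16 was lost and MRPL12 gained). For imatinib, where 22 were called, DESeq2 called 7 (of 20 with an adjusted p), limma 12, the fit without the other factor 0 (23 unadjusted), the fit with GC and length offsets 5 and the fits without 1 library between 0 and 4 (4 without scramble with imatinib, 0 otherwise). A fit on 3 libraries has 1 factor only. Other scalings and filters gave 4 for knockdown and 20 to 24 for imatinib. With the offsets the log2 fold change of imatinib turned to -0.19 for MRPS34, -0.18 for MRPL4, -0.06 for MRPS26 and -0.09 for MRPL41, none of them called; MRPS2 and MRPL36 were called at -0.22 and -0.33 with the offsets, against 0.18 and 0.15, not called, without them. The large over small ratio without the most abundant member of each subunit was 1.473 (knockdown with imatinib), 1.397 (scramble with imatinib), 1.444 (knockdown) and 1.405 (scramble); with MRPS18A and MRPS30 moved and MRPS36 left out 1.810, 1.799, 1.772 and 1.818; and on deposited FPKM 1.817, 1.843, 1.793 and 1.860. Its log2 change with knockdown was 0.076 under imatinib and 0.040 without it once the most abundant members were left out, against 0.038 and 0.002 with them. The medians of log2 ratios were themselves smaller than the spread between members, so that a move within this spread says little about them. For knockdown over scramble under imatinib the median went from 0.06 to 0.01 with the GC and length trend removed. For imatinib over none in knockdown cells it went from 0.01 to -0.01 with DESeq2 size factors. With 1 library per group, and 1 residual degree of freedom in the additive fit, small changes could not be told from the spread.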
